A study of Homo sapiens with 29 samples.

Results

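The INO80 chromatin remodelling complex was followed here over 10 target genes of Wnt signalling through beta-catenin, in HepG2 cells beside Huh7 cells. The genes are AXIN2, LGR5, NKD1, RNF43, ZNRF3, NOTUM, TBX3, GLUL, SP5 and TCF7, listed because they are known targets of the pathway, out of 20163 protein-coding genes annotated on hg19. A peak was counted for a gene when at least 1 bp of it lay in the gene or in the 10 kb on either side. HepG2 and Huh7 are both human liver cancer lines, grown without drug for these libraries. HepG2 is known to carry a deletion in CTNNB1, the beta-catenin gene, that stabilises the protein, and Huh7 is known to have the unmutated gene. Each is a single line, so the mutation cannot be told apart from any other difference between them.

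The lists came from chromatin immunoprecipitation followed by sequencing (ChIP-seq) of INO80, the ATPase of the complex, of its subunits MCRS1, RUVBL1 and RUVBL2, and of YY1, a DNA-binding transcription factor that can act with it. The labels give 3 INO80 libraries in HepG2 and 2 in Huh7, and 2 libraries of MCRS1 and of RUVBL2 in each line. The INO80 list of HepG2 is tied to libraries A and B by their records, and whether library C entered it is not known here. RUVBL1 was mapped in HepG2 alone, from 2 libraries. YY1 has 2 libraries in Huh7, while its HepG2 list was made from public ENCODE reads. Of the 3 INO80 libraries in HepG2, 1 shared its antibody lot with both Huh7 libraries.

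When a Wnt protein binds a Frizzled receptor and its LRP co-receptor, the destruction complex built on Axin stops marking beta-catenin for breakdown. Beta-catenin then enters the nucleus and joins TCF/LEF factors on DNA, where target genes are turned on. Many of the targets encode brakes on the pathway itself, and in liver the pathway is known for setting the gene programme of hepatocytes next to the central vein, GLUL among them.

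Stretches of DNA under the peaks are shown first, because they carry the letters that TCF/LEF factors read and show where on the gene the peaks lay. Each was taken from GRCh37, the sequence of hg19, and is written 5′ to 3′ on the strand of its gene. Capitals mark matches to CTTTGAAC, CTTTGAAG, CTTTGATC or CTTTGATG in either orientation. For 5 of the genes the match covered by the largest number of lists is shown, and for SP5 also the match nearest to its start.
AXIN2 chr17:63556851-63556950 (minus strand): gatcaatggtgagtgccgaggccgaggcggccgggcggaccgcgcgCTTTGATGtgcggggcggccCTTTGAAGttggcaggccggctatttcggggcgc
NOTUM chr17:79919720-79919819 (minus strand): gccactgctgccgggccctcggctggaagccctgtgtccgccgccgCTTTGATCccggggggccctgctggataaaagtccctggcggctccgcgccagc
ZNRF3 chr22:29426828-29426927 (plus strand): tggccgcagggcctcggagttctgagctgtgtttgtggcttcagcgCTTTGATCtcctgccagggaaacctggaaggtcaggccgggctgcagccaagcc
LGR5 chr12:71834711-71834810 (plus strand): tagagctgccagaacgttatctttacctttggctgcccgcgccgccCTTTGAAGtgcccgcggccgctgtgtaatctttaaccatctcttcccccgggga
SP5 chr2:171568768-171568867 (plus strand): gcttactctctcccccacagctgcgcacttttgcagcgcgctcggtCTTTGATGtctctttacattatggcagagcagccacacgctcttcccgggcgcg
SP5 chr2:171571716-171571815 (plus strand): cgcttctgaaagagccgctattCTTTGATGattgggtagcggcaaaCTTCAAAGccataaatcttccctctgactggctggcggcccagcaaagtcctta
The AXIN2 and LGR5 stretches were under 4 HepG2 lists and no Huh7 list. The NOTUM stretch was under 4 HepG2 lists and the INO80 list of Huh7. The ZNRF3 stretch, in an intron, was under the INO80, MCRS1 and YY1 lists of HepG2 and the INO80 and YY1 lists of Huh7. The upstream SP5 stretch was under all 5 HepG2 lists and the INO80 and YY1 lists of Huh7, and the stretch next to the SP5 start under 4 HepG2 lists and the YY1 list of Huh7. AXIN2 and the SP5 start each show a pair of matches within the printed bases.

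The 9 lists give positions and widths, with no height, enrichment or read count, and 1 list stands for each factor and line. No difference below therefore has a replicate error or a test, and how many reads stand behind a peak is not known. The lists differ in length and width: those of HepG2 hold 5518 to 39293 peaks with median widths of 279 to 666 bp, and those of Huh7 hold 3322 to 21554 peaks with median widths of 254 to 438 bp. Both features move with every count that follows. Lists of equal length, given below, even out the number of peaks alone, and the part of width was not tested. Hepatocyte marker genes were occupied in HepG2 and in part in Huh7. INO80 peaks lay at 8 of 8 such genes in HepG2 (73.9% of coding genes) and at 4 of 8 in Huh7 (60.5%). In Huh7, ALB, APOB, HNF4A and FOXA2 held them and AFP, APOA1, TTR and SERPINA1 did not. Markers of other cell types had INO80 at 3 of 7 in HepG2 and 1 of 7 in Huh7.

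Across the members, HepG2 held far more peaks than Huh7. All 10 genes had an INO80 peak in HepG2, where 73.9% of coding genes had one, and 7 of 10 had one in Huh7, where 60.5% of coding genes did. MCRS1 covered 10 of 10 members in HepG2 (background 69%) and 2 of 10 in Huh7 (background 31.6%). RUVBL2 covered 9 of 10 in HepG2 (background 50.3%) and 2 of 10 in Huh7 (background 20.2%). YY1 covered 10 of 10 in HepG2 (background 79.8%) and 7 of 10 in Huh7 (background 66.1%). RUVBL1, mapped in HepG2 alone, covered 8 of 10 against a background of 27.3%, all but GLUL and TCF7. The HepG2 counts of RUVBL1 and RUVBL2 lay furthest above their backgrounds, while those of INO80 and YY1 were near theirs in both lines, and the Huh7 counts of MCRS1 and RUVBL2 were at or below theirs. Among the 5041 longest coding genes, which include LGR5, NKD1 and ZNRF3, the HepG2 backgrounds were 82% for INO80 and 87.7% for YY1.

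AXIN2, NKD1 and TCF7 had INO80 peaks in HepG2 only, a state found at 16.4% of coding genes. The same 3 genes had YY1 peaks in HepG2 only, against a background of 16.1%. MCRS1 was in HepG2 only at 8 of 10 members (background 38.4%), the exceptions being RNF43 and ZNRF3, and RUVBL2 at 7 of 10 (background 31.7%). No member had a peak of any of these 4 factors in Huh7 only, a state found at 2.99% of coding genes for INO80, 1.01% for MCRS1, 1.55% for RUVBL2 and 2.38% for YY1. Among the 14640 coding genes that at least 1 Huh7 list touched, which include 7 members, the HepG2 shares were 91.5% for INO80, 86.7% for MCRS1, 36.2% for RUVBL1, 66.1% for RUVBL2 and 94.4% for YY1, and of these 7 members all had each factor but RUVBL1, which 6 had. Among the 16873 coding genes that at least 1 HepG2 list touched, which include all 10 members, the Huh7 shares were 71.2% for INO80, 37.5% for MCRS1, 24.1% for RUVBL2 and 77.4% for YY1. INO80, MCRS1, RUVBL2 and YY1 were all present at 9 of 10 members in HepG2 (background 49.6%) and at 2 of 10 in Huh7 (background 15.5%).

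**Figure D1:**
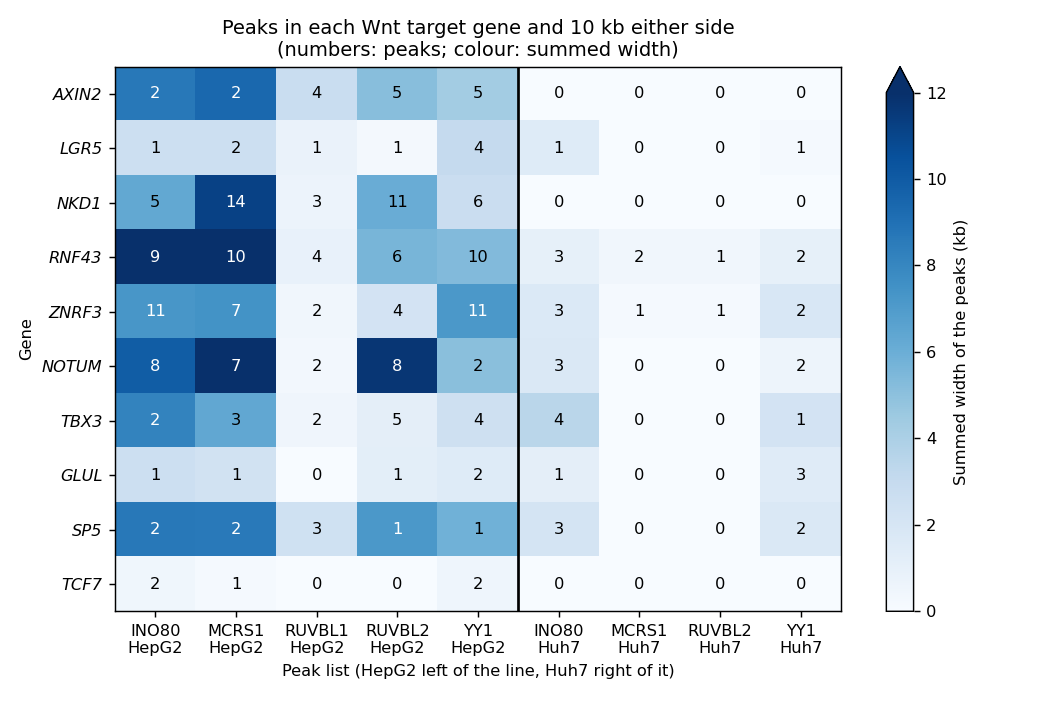
Number of peaks (printed) and their summed width in kb (colour) in each of the 10 genes and 10 kb either side, for the 5 HepG2 lists and the 4 Huh7 lists; the colour scale ends at 12 kb, which RNF43 and NOTUM pass. The AXIN2, NKD1 and TCF7 rows hold 0 peaks in all 4 Huh7 lists, and the Huh7 MCRS1 and RUVBL2 columns hold peaks in RNF43 and ZNRF3 alone. Peaks of any Huh7 list lay at 7 of the 10 genes and at 14640 of 20163 coding genes.

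The 4 factors mapped in both lines had 181 peaks over the members in HepG2 and 36 in Huh7, while their whole lists held 99319 and 46199 peaks. The peaks over the members summed to 221344 bp in HepG2 and 22637 bp in Huh7. For INO80 a member averaged 4.3 peaks in HepG2, where a coding gene averaged 1.60, and 1.8 peaks in Huh7, where a coding gene averaged 1.02. For MCRS1 the average was 4.9 per member in HepG2 against 1.59 per coding gene, and 0.3 per member in Huh7 against 0.433 per coding gene. For RUVBL2 it was 4.2 per member in HepG2 against 0.995 per coding gene, and 0.2 in Huh7 against 0.308. The members were thus above the average gene in HepG2 for each of these factors, and in Huh7 for INO80 only. For YY1 a member averaged 4.7 peaks in HepG2 against 2.18 per coding gene, and 1.3 in Huh7 against 1.45. Counted gene by gene, INO80 had more peaks in HepG2 at 6 of 10 members (39.2% of coding genes) and more in Huh7 at 2, TBX3 and SP5 (10.4%). MCRS1 had more in HepG2 at 10 of 10 (55.5%) and RUVBL2 at 9 of 10 (41.4%), and neither had more in Huh7 at any member (2.55% and 3.01%). YY1 had more in HepG2 at 7 of 10 (46.1%) and more in Huh7 at GLUL and SP5 (13.8%). Longer genes offer more room for peaks, and among the members ZNRF3, LGR5, NKD1 and RNF43 are the longest.

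AXIN2 encodes a scaffold of the destruction complex and is among the best-known feedback brakes on Wnt signalling (chr17:63524681-63557766, minus strand). In HepG2 a single INO80 peak of 6876 bp covered its start (chr17:63552152-63559027), wider than 99.8% of INO80 peaks of that line, with a further peak of 1778 bp in an intron. The MCRS1 peak there was wider still, 9037 bp, at the 99.9th percentile of its list. YY1 had a peak of 2995 bp over the canonical start, and RUVBL2 and RUVBL1 had peaks of 4038 and 1954 bp over a start further inside the gene. AXIN2 therefore carried peaks at a start in all 5 HepG2 lists, 18 peaks in all, and none in the 4 Huh7 lists. Peaks of any Huh7 list lay at 14640 of the 20163 coding genes and at 7 of the 10 members. The share of members without a Huh7 peak was thus close to that of coding genes.

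NKD1, which encodes an inhibitor of Dishevelled, showed the same split between the lines (chr16:50582307-50683160, plus strand). HepG2 held 5 INO80, 14 MCRS1, 3 RUVBL1, 11 RUVBL2 and 6 YY1 peaks over it, and Huh7 held none. The peaks at its start spanned 4337 bp for INO80, 4330 bp for MCRS1, 3265 bp for RUVBL2 and 1488 bp for YY1 in HepG2. Most of the other MCRS1 and RUVBL2 peaks were narrow and lay along the introns, and RUVBL1 had no peak within 1 kb of the start.

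NOTUM encodes a secreted enzyme that removes the lipid from Wnt proteins (chr17:79910383-79919716, minus strand). It had 8 INO80, 7 MCRS1, 2 RUVBL1, 8 RUVBL2 and 2 YY1 peaks in HepG2, against 3 INO80 and 2 YY1 peaks in Huh7. The INO80 start peak measured 4785 bp in HepG2, and the same stretch held peaks of 839, 547 and 324 bp in Huh7. In HepG2 a further MCRS1 peak of 4374 bp lay upstream, where INO80, RUVBL2 and YY1 had peaks of 2040, 1478 and 1617 bp. MYADML2 starts within the window, and the peaks at the far end of NOTUM lay nearest to its start.

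SP5 encodes a zinc-finger transcription factor (chr2:171571847-171574588, plus strand). The gene lay wholly inside a peak in 3 HepG2 lists, with widths of 8248 bp for INO80, 7874 bp for MCRS1 and 7160 bp for RUVBL2, and the YY1 peak of 5859 bp was wider than 99.99% of its list. Huh7 had INO80 peaks of 1223, 551 and 356 bp and YY1 peaks of 1498 and 213 bp there, with no MCRS1 or RUVBL2 peak. Unlike AXIN2 and NKD1, SP5 was thus occupied by INO80 and YY1 in both lines, over a shorter stretch in Huh7.

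**Figure D2:**
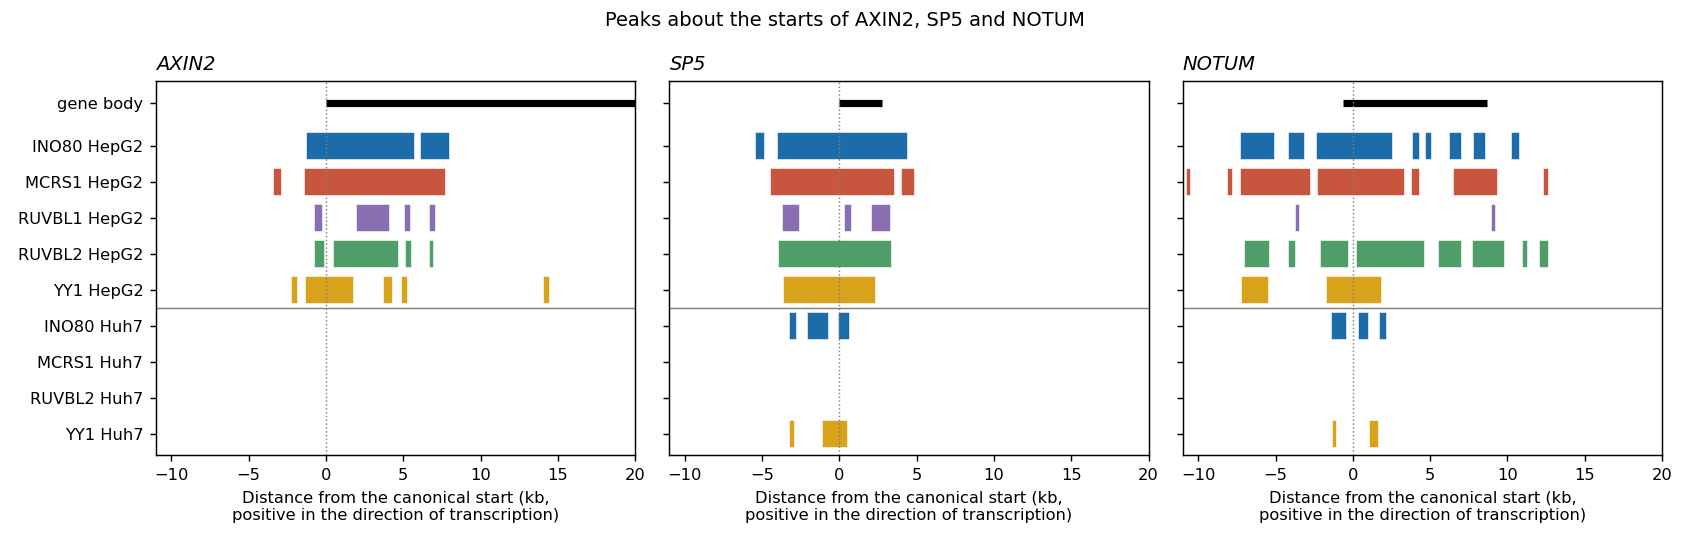
Peaks of the 9 lists about the starts of AXIN2, SP5 and NOTUM, as distance in kb from the canonical start in the direction of transcription; each bar is 1 peak drawn to scale and the black bar is the gene body. In HepG2 the INO80, MCRS1 and YY1 rows carry a bar across each canonical start, the RUVBL2 row does so at SP5 and has bars on either side of it at AXIN2 and NOTUM, and the RUVBL1 bars are short or off the start. The Huh7 rows are empty at AXIN2, and at SP5 and NOTUM they hold short INO80 and YY1 bars.

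RNF43 and ZNRF3 encode related membrane ubiquitin ligases that remove Frizzled receptors from the cell surface, and they were the only members with MCRS1 or RUVBL2 peaks in Huh7. RNF43 (chr17:56431037-56494956, minus strand) had 9 INO80 and 10 MCRS1 peaks in HepG2, against 3 and 2 in Huh7. Its INO80 start peak spanned 5589 bp in HepG2, and Huh7 had peaks of 235 and 156 bp there. The RUVBL2 peak of Huh7, 396 bp wide, and the wider YY1 peak, 701 bp, lay beyond the far end of RNF43 at the start of SUPT4H1, a gene of transcription elongation, as did 1 of the 2 MCRS1 peaks. The other MCRS1 peak of Huh7, 219 bp, was at the RNF43 start, where an unnamed coding gene, ENSG00000285897, also begins. With only peaks nearest to a start of the member itself, the counts of MCRS1 and RUVBL2 in Huh7 were 0 of 10 each.

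ZNRF3 (chr22:29279560-29453476, plus strand) held the one intronic site with all factors in both lines. At chr22:29426105-29427856 the INO80 peak was 1752 bp wide in HepG2 and 1295 bp in Huh7, the MCRS1 peak 1420 bp in HepG2 and 147 bp in Huh7, the RUVBL2 peak 501 bp in HepG2 and 187 bp in Huh7, and the YY1 peak 1417 bp in HepG2 and 515 bp in Huh7. This site overlaps the ZNRF3 stretch printed above, and the nearest coding start is that of C22orf31. At the ZNRF3 start HepG2 had INO80 peaks of 739 and 986 bp and Huh7 one of 186 bp, all narrower than the INO80 start peaks of AXIN2, NKD1, NOTUM and RNF43 in HepG2. Elsewhere along the gene, HepG2 had a further 8 INO80 peaks and Huh7 a further 1.

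**Figure D3:**
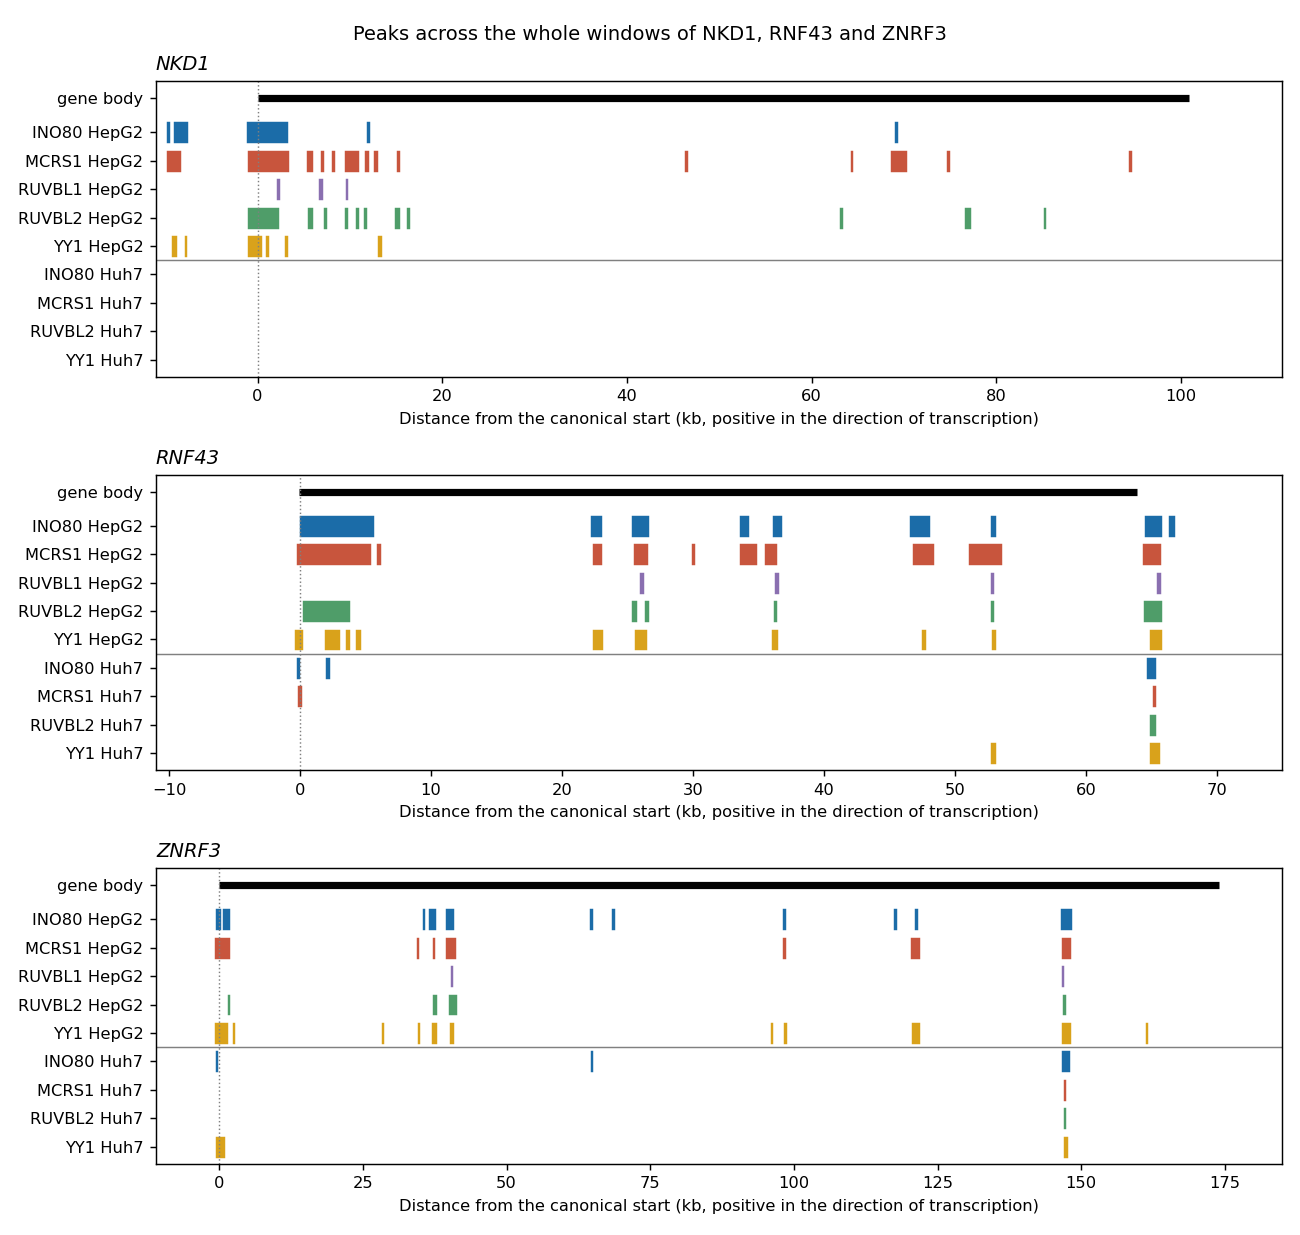
Peaks of the 9 lists across the windows of NKD1, RNF43 and ZNRF3, as distance in kb from the canonical start; each bar is 1 peak and the black bar is the gene body. NKD1 has bars in the HepG2 rows alone, RNF43 keeps Huh7 bars at both ends, and ZNRF3 has 1 intronic site with a bar in every row.

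LGR5 encodes a receptor for R-spondins and marks stem cells of the gut (chr12:71833578-71980090, plus strand). Its start held an INO80 peak of 2604 bp in HepG2 and one of 1481 bp in Huh7. MCRS1 had a start peak of 2285 bp, YY1 one of 2374 bp and RUVBL1 one of 752 bp in HepG2, while the only other Huh7 peak was a YY1 peak of 165 bp. RUVBL2 at LGR5 was limited to a peak of 196 bp in HepG2.

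TBX3, a T-box transcription factor gene, had more INO80 peaks in Huh7 than in HepG2, though narrower ones, as SP5 did (chr12:115108060-115121980, minus strand). It had 2 INO80 peaks in HepG2, of 5466 and 2684 bp, and 4 in Huh7, of 1952, 784, 535 and 171 bp. The widest YY1 peak at the start measured 1210 bp in HepG2 and 2160 bp in Huh7, the one case in which a start peak was wider in Huh7. The INO80 peak downstream of the gene was present in both lines, at 2684 bp in HepG2 and 1952 bp in Huh7. MCRS1 had 3 peaks and RUVBL2 had 5 at TBX3 in HepG2, and neither had any in Huh7.

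GLUL encodes glutamine synthetase, the enzyme that marks hepatocytes around the central vein (chr1:182347233-182361341, minus strand). INO80 had a start peak of 2622 bp in HepG2 and of 1153 bp in Huh7, and YY1 one of 1321 bp in HepG2 and of 1120 bp in Huh7. MCRS1, at 2301 bp, and RUVBL2, at 1206 bp, were found at the start in HepG2 only, and RUVBL1 had no peak at GLUL. The YY1 start peaks of GLUL thus differed little in width between the lines.

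TCF7, which encodes one of the TCF/LEF partners of beta-catenin, had the least signal among the members (chr5:133450372-133487556, plus strand). HepG2 held INO80 peaks of 170 and 261 bp, an MCRS1 peak of 163 bp and YY1 peaks of 363 and 179 bp over it, and neither RUVBL list had one. Huh7 had no peak at TCF7 in any list. Its INO80 peaks were wider than only 8.36% and 24.5% of their list, so its presence in HepG2 only rests on narrow peaks.

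At the starts of coding transcripts, within 1 kb, INO80 was found at 10 members in HepG2 (background 63.4%) and 7 in Huh7 (background 47.5%). MCRS1 was at 10 starts in HepG2 (background 58%) and at 1 in Huh7 (background 21.8%), and RUVBL2 at 8 in HepG2 (background 39%) and 0 in Huh7 (background 12.6%). YY1 was at 10 in HepG2 (background 62.4%) and 4 in Huh7 (background 51.4%), the 4 being ZNRF3, TBX3, GLUL and SP5. RUVBL1 was at 4 starts in HepG2, those of AXIN2, LGR5, TBX3 and SP5 (background 16.8%). With no peak counted as 0, the widest INO80 start peak was wider in HepG2 than in Huh7 at 10 of 10 members, and at 55.2% of coding genes. Among the 7 members with INO80 at the start in both lines, the median ratio of widths, HepG2 over Huh7, was 5.7, ranging between 1.76 and 23.8. Over the 9094 coding genes with both it was 1.78. Over whole windows the INO80 ratio was smaller, 2.8 for the widest peak (beside 1.77) and 4.07 for summed widths (beside 1.97). For YY1 start peaks the ratio at the 4 members with both had a median of 1.36, ranging between 0.56 and 3.91, beside 1.4 over coding genes. Over the whole windows the ratio of summed YY1 widths had a median of 3.89 at the 7 members with YY1 in both lines, beside 1.51 over coding genes. For the widest YY1 peak in the window it was 1.54, beside 1.32 over coding genes.

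**Figure D4:**
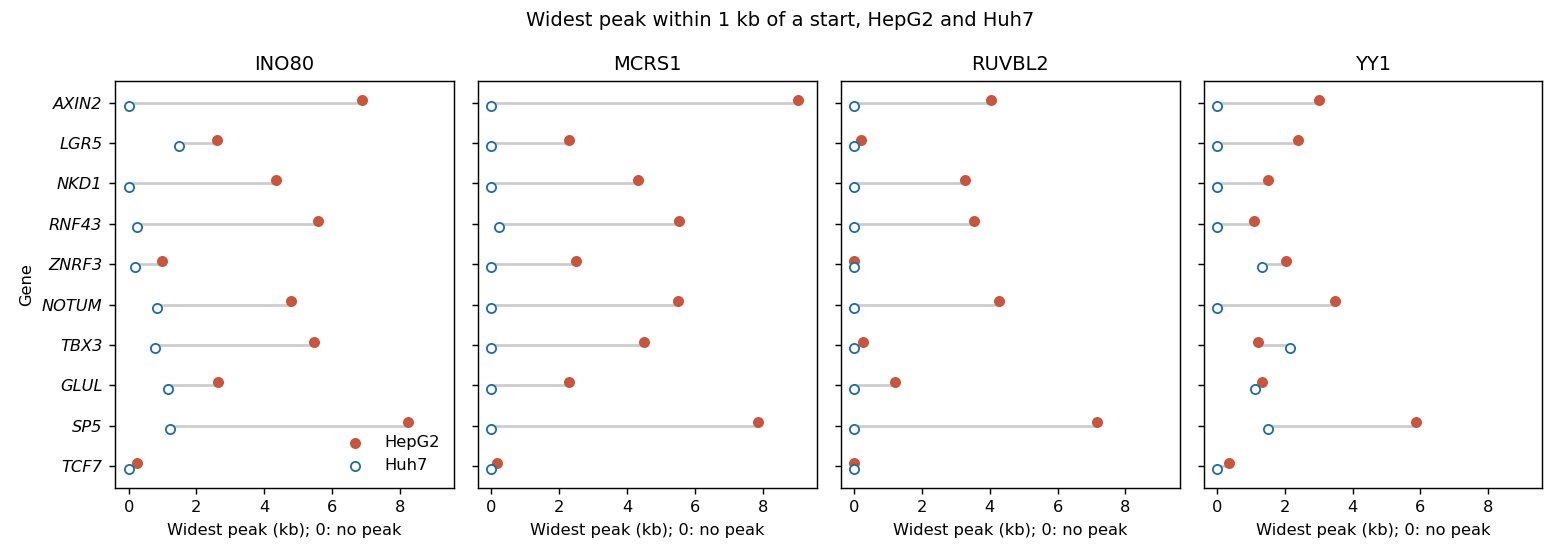
Width in kb of the widest peak within 1 kb of a start for each of the 10 genes in HepG2 (filled) and Huh7 (open), by factor; 0 stands for no peak. INO80 and MCRS1 points lie higher in HepG2 for all 10 genes, as at 55.2% and 57% of coding genes. The Huh7 point is 0, no peak, at AXIN2, NKD1 and TCF7 for INO80 and at all but RNF43 for MCRS1. The YY1 point of TBX3 is the one that is wider in Huh7, as at 14.9% of coding genes.

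Since the HepG2 lists are longer, each list was also reduced to its 3322 widest peaks, the length of the shortest. The cut fell at unlike widths in HepG2 and Huh7. The narrowest peak kept was 1758 and 945 bp for INO80, and 1645 and 248 bp for MCRS1. For RUVBL2 it was 735 and 147 bp, and for YY1 1292 and 982 bp. The RUVBL2 list of Huh7 is the shortest and was left whole. The backgrounds then lay close together. More members had a peak in HepG2 than in Huh7 for each shared factor. The part of list length or width in this was not tested. INO80 was at 8 of 10 members in HepG2 (background 21.3%) and 5 of 10 in Huh7 (background 21.4%). MCRS1 was at 9 of 10 in HepG2 (background 21.5%) and at 0 of 10 in Huh7 (background 20.2%). RUVBL2 was at 7 of 10 in HepG2 (background 20.8%) and 2 of 10 in Huh7 (background 20.2%), and YY1 at 7 of 10 in HepG2 (background 22.7%) and 4 of 10 in Huh7 (background 21.4%). RUVBL1 was at 6 of 10 in HepG2 (background 18.9%). In Huh7 only, INO80 was at ZNRF3 (background 9.8%) and YY1 at TBX3 (background 8.42%), while MCRS1 and RUVBL2 were at no member (backgrounds 10.9% and 8.62%). In HepG2 only, MCRS1 was at 9 members (background 12.3%), RUVBL2 at 5 (background 9.15%), and INO80 and YY1 at 4 each (backgrounds 9.7% and 9.74%).

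**Figure D5:**
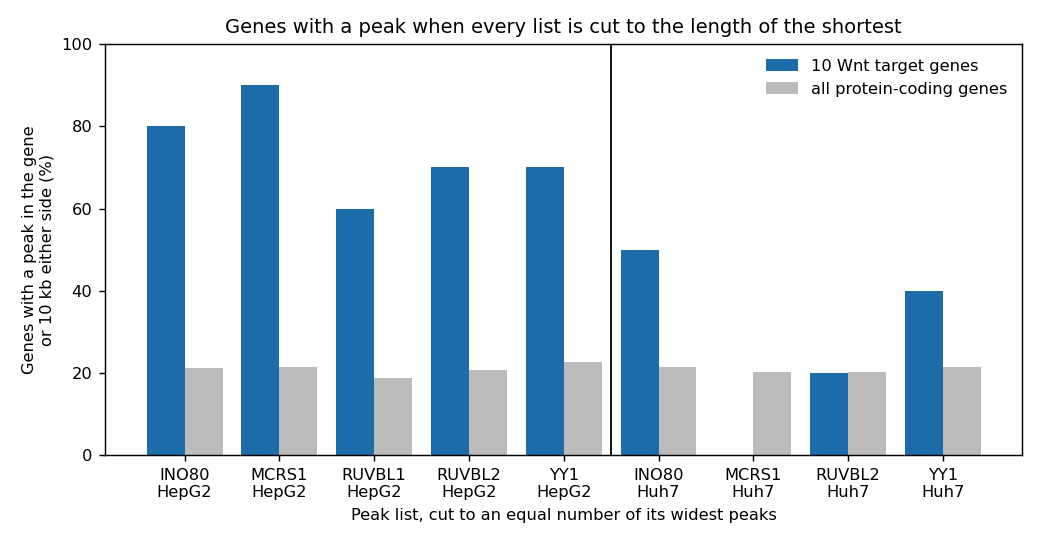
Percentage of the 10 genes (blue) and of all 20163 protein-coding genes (grey) with a peak in the gene or 10 kb either side, when each list is reduced to its 3322 widest peaks. The grey bars lie between 18.9 and 22.7%, the blue bars of the HepG2 lists and of INO80 and YY1 in Huh7 lie above them, that of RUVBL2 in Huh7 is level with them, and that of MCRS1 in Huh7 is at 0.

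Peaks over the members in Huh7 mostly lay where HepG2 also had one. Of the 18 Huh7 INO80 peaks, 16 overlapped a HepG2 INO80 peak, as did 74.4% of all Huh7 INO80 peaks. The other way round, 11 of the 43 HepG2 INO80 peaks over members overlapped one of Huh7, beside 44.2% of all HepG2 INO80 peaks. For MCRS1, 3 of 49 HepG2 peaks over members overlapped one of Huh7 (19.8% of all), and for YY1 10 of 47 did (35.9% of all).

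Which partners lay at the INO80 peaks of the members was counted in each line. In HepG2, MCRS1 overlapped 33 of 43 INO80 peaks over members (76.7%, beside 70.4% of all INO80 peaks), RUVBL2 23 (53.5%, beside 41.1%), RUVBL1 14 (32.6%, beside 18.8%) and YY1 25 (58.1%, beside 70.3%). In Huh7, MCRS1 overlapped 3 of 18 (16.7%, beside 31.8%), RUVBL2 2 (11.1%, beside 17%) and YY1 10 (55.6%, beside 69%). The YY1 shares over the members were the lower ones in each line, but rest on 43 and 18 peaks and were not tested. Of the 43, RNF43 held 9 and ZNRF3 11, so the peaks come unevenly from the genes. The broad peaks overlap more partners by their size alone.

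The TCF/LEF letters were more frequent under the members' INO80 and YY1 peaks than under all peaks of the same lists, in both lines. In windows of 300 bp about the peak centres, 5 of 43 INO80 peaks over members held a match in HepG2 (11.6%, beside 3.1% of all INO80 peaks), and 3 of 18 in Huh7 (16.7%, beside 2.4%). YY1 peaks over members held one in 15 of 47 cases in HepG2 (31.9%, beside 4.87%) and 4 of 13 in Huh7 (30.8%, beside 2.07%). Per kb of INO80 peak the members had 0.495 matches in HepG2, beside 0.105 over all INO80 peaks, and 0.476 in Huh7, beside 0.0804. The members were picked as known targets of TCF and beta-catenin, so these letters belong to the choice of genes, and no test was made of them. The whole INO80 peaks of HepG2 held 33 matches over the members, of which NKD1 had 7, AXIN2 and SP5 6 each, RNF43 and ZNRF3 4 each, NOTUM and TBX3 2 each, LGR5 and TCF7 1 each and GLUL 0, and those of Huh7 held 6. In promoters, from 250 bases before the start to 50 after it, 3 of 10 members held a match, and 2.57% of 20163 coding promoters did.

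The YY1 letters, AANATGGC on either strand, were few under the members' peaks, and the counts are too small to set apart from the share over all peaks. They were in 1 of 43 INO80 windows over members in HepG2 (2.33%, beside 7.09% of all) and in 1 of 18 in Huh7 (5.56%, beside 11.6%). Of the members' promoters 0 of 10 held them, beside 8.08% of coding promoters. Over whole peaks the INO80 shares were 11.6% in HepG2 (beside 15.4%) and 0% in Huh7 (beside 17.5%). The 1 match in a Huh7 window was thus not wholly inside its peak. The MCRS1 share in HepG2 was 18.4% (beside 14.9%). Those of YY1 were 10.6% in HepG2 (beside 15.4%) and 15.4% in Huh7 (beside 17.3%).

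Other genes of the pathway, 93 in all, had shares with a peak on either side of those of all coding genes, which are also higher in HepG2. INO80 was at 80 of them in HepG2 (86%, beside 73.9% of coding genes) and 64 in Huh7 (68.8%, beside 60.5%). MCRS1 was at 61 in HepG2 (65.6%, beside 69%) and 20 in Huh7 (21.5%, beside 31.6%), and RUVBL2 at 41 in HepG2 (44.1%, beside 50.3%) and 14 in Huh7 (15.1%, beside 20.2%). YY1 was at 79 in HepG2 (84.9%, beside 79.8%) and 61 in Huh7 (65.6%, beside 66.1%), and RUVBL1 at 20 in HepG2 (21.5%, beside 27.3%). The shares of MCRS1, RUVBL1 and RUVBL2 thus lay below those of coding genes, and the shares of INO80 lay above them in both lines. INO80 was in HepG2 only at 19 of the 93 (20.4%, beside 16.4%) and in Huh7 only at 3 (3.23%, beside 2.99%). Among the 20 other beta-catenin targets, 17 had INO80 in HepG2 (73.9% of coding genes) and 12 in Huh7 (60.5%). MCRS1 was at 14 of the 20 in HepG2 (69% of coding genes) and at 5 in Huh7 (31.6%). The contrast between the lines is thus found over all coding genes too. CCND1, the cyclin D1 gene, had INO80 peaks summing to 7689 bp in HepG2 and 7944 bp in Huh7, SOX9, a transcription factor gene, 6782 bp in HepG2 and 2043 bp in Huh7, and SLC13A3, a dicarboxylate transporter gene, 7940 bp in HepG2 and 298 bp in Huh7. CCND1 thus had about the same INO80 coverage in both lines, unlike AXIN2 or NKD1.

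The Wnt ligand genes had INO80 about as often in one line as in the other. It was at 16 of 19 in HepG2 (73.9% of coding genes) and 17 of 19 in Huh7 (60.5%). MCRS1 was at 8 in HepG2 (69% of coding genes) and at 1 in Huh7 (31.6%). WNT10A, WNT10B and WNT6 had the longest INO80 coverage in HepG2, with 7323, 7021 and 6696 bp, against 1366, 1114 and 715 bp in Huh7. WNT2 and WNT8B had INO80 in Huh7 only, over 458 and 1410 bp, as did PORCN, the enzyme that attaches the lipid to Wnt proteins, over 224 bp. Of the 6 secretion and R-spondin genes, 4 had INO80 in HepG2 (73.9% of coding genes) and 2 in Huh7 (60.5%). RSPO3, an R-spondin gene, had the longest coverage, 3268 bp in HepG2 beside 692 bp in Huh7.

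Beside each of the next groups, 73.9% of coding genes had INO80 in HepG2 and 60.5% in Huh7. Receptor genes had INO80 at 16 of 17 in HepG2 and 11 of 17 in Huh7. Among them LRP5 had 6205 bp in HepG2 and 3281 bp in Huh7, and FZD5, a Frizzled gene, 5000 bp and 1185 bp. Secreted inhibitors had it at 7 of 11 in HepG2 and 5 of 11 in Huh7, SFRP4 first at 2863 bp in HepG2 beside 150 bp in Huh7. Genes of the destruction complex and Dishevelled had it at 11 of 12 in HepG2 and 10 of 12 in Huh7. AXIN1, the constitutive relative of AXIN2, had 5309 bp in HepG2 and 1053 bp in Huh7, and DVL2 6442 bp in HepG2 and 2326 bp in Huh7. Beta-catenin and its nuclear partners had INO80 at 11 of 11 in HepG2 and 9 of 11 in Huh7, and TCF7L2, a TCF/LEF gene, had 5163 bp in HepG2 and 4003 bp in Huh7.

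The coding genes on other chromosomes whose coverage over the 9 lists was most like that of AXIN2 were JPH4, BPIFB2, CHDH, IL17RB and NKD1. Likeness was the sum over the lists of the absolute difference in log2(covered bp + 1), which was 1.82 for JPH4, 2.28 for BPIFB2, 3.23 for CHDH, 3.32 for IL17RB and 3.68 for NKD1. CHDH and IL17RB had the same coverage in every list but YY1 of HepG2. Both lie on chromosome 3, so they may hold the same peaks and need not be separate cases. The genes were picked for this likeness, so sharing the pattern of AXIN2 follows from the choice, and NKD1 is itself a member. JPH4, BPIFB2, CHDH and IL17RB had peaks in all 5 HepG2 lists and none in Huh7. The pattern thus also occurred outside the Wnt targets listed here.

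HepG2 is known to carry extra copies of chromosomes 2, 14, 16, 17 and 20, and AXIN2, NKD1, RNF43, NOTUM and SP5 lie on them. These 5 genes had 26 INO80, 35 MCRS1, 31 RUVBL2 and 24 YY1 peaks in HepG2, against 9, 2, 1 and 6 in Huh7. The 5 members on other chromosomes had 17 INO80, 14 MCRS1, 11 RUVBL2 and 23 YY1 peaks in HepG2, against 9, 1, 1 and 7 in Huh7. The counts were thus larger in HepG2 in both sets. Their copy number in these cells was not measured here, and its part was not tested.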

How the data were processed

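Peaks of INO80, MCRS1, RUVBL1, RUVBL2 and YY1 in HepG2, and of all but RUVBL1 in Huh7, were taken from 9 lists. Per the submitters' processing notes, MACS2, Bowtie2, deepTools, SAMtools and bedtools were used on hg19 and dm3; versions are not stated there. The authors deposited each list filtered, with positions and no score. The sources used here do not give whether libraries were pooled before calling, so a peak carries no replicate value. A table of fly spike-in tags, input libraries and libraries of acetylated histone H3 lysine 27 were not used here.

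Gene limits and starts were read from the GRCh37 lift of GENCODE release 44, with 20163 protein-coding genes as background. A start was that of any coding transcript of the basic set. Overlaps needed at least 1 bp, and coordinates are 1-based. Width percentiles were taken within each list. Letters were searched on both strands. The code that assigns peaks to genes was tested on simulated peaks, and the motif search was not. Python 3.11.15 and NumPy 2.4.6 were used. The members and gene lists were chosen with earlier results of these data known, so counts are descriptions. Named genes outside the members were, for each gene list, up to 3 with the longest INO80 coverage in HepG2 and any with INO80 in Huh7 only, those most like AXIN2, and those whose start lay nearest to a named peak. Not each gene so chosen is described. The hepatocyte markers are named in full, HNF4A, FOXA2, APOA1, TTR and SERPINA1 after their values were seen. The sequence of 1 further region is not reported here.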

Additional observations from a re-analysis of the deposited data

How the results depend on the processing

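Of the values recomputed under other settings, 151 counted as unchanged and 60 moved. Unchanged meant within a set ratio of the main count or, for shares of peaks, within the interval of the main share. The tally does not measure robustness. Counts beside the background by gene length repeated the main ones by design, as did Huh7 counts beside genes with a HepG2 peak. Counts without the extra-copy chromosomes came from fewer members, and all of them moved. All planned settings were run except those that need replicates. No paired analysis was possible because the lists hold no value per library, and no library was left out for the same reason.

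With the gene body alone, RUVBL2 in Huh7 fell to 1 member and the peaks of the 4 shared factors in Huh7 to 23. With 50 kb on either side, MCRS1 in Huh7 was at 5 members and in HepG2 only at 5, and the peaks numbered 307 in HepG2 and 73 in Huh7. Within 1 kb of a start, RUVBL1 was at 4, MCRS1 in Huh7 at 1, RUVBL2 in Huh7 at 0, YY1 in Huh7 at 4 and YY1 in HepG2 only at 6, with 50 peaks in HepG2 and 17 in Huh7. With peaks of 500 bp or more, RUVBL1 was at 3, and MCRS1 and RUVBL2 in Huh7 at 0, with 85 peaks in HepG2 and 17 in Huh7. With the wider 50% of each list, RUVBL1 was at 5, MCRS1 in Huh7 at 0 and RUVBL2 in Huh7 at 1, with 94 peaks in HepG2 and 19 in Huh7. With lists of equal length, MCRS1 in Huh7 was at 0 and YY1 in Huh7 at 4, with 44 peaks in HepG2 and 11 in Huh7; at starts, INO80 in Huh7 was at 3 and MCRS1 at 0. With peaks nearest to the member's own start, MCRS1 and RUVBL2 in Huh7 were at 0 and YY1 in HepG2 only at 5.

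Leaving out the extra-copy chromosomes removes 5 members. Of the other 5, INO80, MCRS1 and YY1 in HepG2 were at 5, RUVBL2 at 4 and RUVBL1 at 3, and in Huh7 INO80 and YY1 were at 4 and MCRS1 and RUVBL2 at 1. HepG2 only held 1 for INO80 and YY1, 4 for MCRS1 and 3 for RUVBL2, with 65 peaks in HepG2 and 18 in Huh7. Of the INO80 peaks over members, those with a partner centre within 250 bp were 30.2% for MCRS1, 14% for RUVBL1, 18.6% for RUVBL2 and 30.2% for YY1 in HepG2 and 11.1% for YY1 in Huh7. With 50% of the INO80 peak covered they were 2.33% for RUVBL1, 25.6% for RUVBL2 and 34.9% for YY1 in HepG2 and 5.56% for MCRS1 in Huh7. With lists of equal length MCRS1 was at 90.9% in HepG2 and 0% in Huh7. TCF/LEF letters were in 32.6% of whole INO80 peaks over members in HepG2, and YY1 letters in 0% of those in Huh7. HepG2 had at least as many members with a peak as Huh7 for each shared factor under each of these settings. The causes of these shifts beyond fewer peaks or members were not tested.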
